A study of Mus musculus with 11 samples.

Results

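The 9 genes described here, Ttr, Folr1, Clic6, Kl, Kcne2, Otx2, Aqp1, Slc4a5 and Prlr, are known for high expression in the choroid plexus. They were chosen by name, by matching the RefSeq accession of each array probe to these symbols. They matched 12 probes, and all 9 were among the 26082 features that passed the filter on dim probes, of which 16067 carry a gene symbol. For each gene the brightest probe was used.

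The choroid plexus is a fold of specialised epithelium on blood vessels that hangs in the brain ventricles and secretes cerebrospinal fluid. Its cells move ions and water from blood to fluid and secrete carrier proteins and signals. The cerebral cortex itself holds no choroid plexus, although the hippocampus and the lateral ventricle lie beneath it.

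The samples were RNA of the right hemisphere's cortex from 22 C57/Bl6J mice, 5 to 7 months old, and were measured on 11 Agilent 2-colour arrays that each carried 1 mouse in Cy5 and another in Cy3. Intact wild-type mice (WT, n = 6) and intact transgenic mice (T, n = 5) were compared with wild-type mice (WTC, n = 5) and transgenic mice (TC, n = 6) given a focal cold injury with dry ice for 30 s and studied 3 days later. The transgenic mice carried GFA2-tTa with TetO-VP16-CREB, so that astrocytes, the cells in which the GFA2 promoter is active, made VP16-CREB, a transcription factor CREB that is always switched on. The mouse of a group is named here by the letter of its array (A to F and I to M), so that "WT D" is the WT mouse of array D. Arrays A to F lay on slide 1 and arrays I to M on slide 2. All 6 WT mice were on slide 1, together with 3 T, 2 WTC and 1 TC mice, and slide 2 held 2 T, 3 WTC and 5 TC mice.

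In each channel 56.6% to 65.3% of spots exceeded background clearly, and precision is limited by how many arrays there were. Gfap, the intermediate filament of astrocytes, lay between 11.15 and 12.74 on the log2 scale in intact mice and between 13.96 and 15.74 in lesioned ones. For 3 arrays (I, J and K) the labels of the Cy3 channel contradict the sample titles, and groups follow the titles. On I and K the label gives T where the title gives TC, and on J it gives TC where the title gives T. The groups of the mice named here TC I, TC K and T J are thus less certain. Among marker lists of other brain regions, the mean level of the 16 excitatory cortex genes, relative to its mean over all mice, lay between -0.92 and 0.77 in 21 mice and at -1.77 in TC I.

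Levels below are log2 fluorescence intensities per mouse, normalised within and between arrays, with each probe's dye effect removed. They can be compared between mice for 1 gene, but not between genes. In bulk tissue, fewer cells of a type and less RNA per cell cannot be told apart.

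The choroid plexus genes differed between mice of the same group far more than nearly all other genes did. Ttr encodes transthyretin, the carrier of thyroid hormone and of retinol-binding protein that choroid plexus secretes into the fluid. Its level in the WT mice was 11.42 in A, 13.63 in B, 13.26 in C, 18.15 in D, 10.24 in E and 14.43 in F. In the T mice it was 13.79 in D, 14.34 in E, 12.42 in F, 10.21 in I and 13.79 in J. WT D thus stood far above the next WT mouse, F, whereas the T mice held no such value. In the WTC mice Ttr was 11.50 in A, 18.52 in B, 16.72 in K, 15.37 in L and 16.31 in M. In the TC mice it was 12.45 in C, 8.66 in I, 17.05 in J, 11.18 in K, 16.78 in L and 10.28 in M. All 4 groups overlapped, and the TC mice alone spanned nearly the full range of the 22 animals. The raw signal above local background ran from 250 in TC I (Cy3) to 246120 in TC J (Cy5), a ratio of 984.5. These 2 values are not normalised and differ in dye and array as well as in mouse. No spot was marked as saturated (0 flags).

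Kcne2, an accessory subunit of voltage-gated potassium channels in this epithelium, showed the clearest break. It lay at 6.53, 6.47, 7.40, 11.85, 6.40 and 8.4 in WT A to F, and at 7.54, 8.14, 7.59, 6.80 and 8.99 in T D, E, F, I and J. In WTC A, B, K, L and M it was 6.91, 12.08, 10.998, 10.68 and 11.10, and in TC C, I, J, K, L and M it was 7.47, 6.07, 12.38, 6.98, 11.74 and 6.52. At or above 10.68 lay 7 animals and the other 15 lay at or below 8.99, with nothing between. The signal was not well above background in 4 of the 22 channels, so its lowest levels are compressed.

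**Figure D1:**
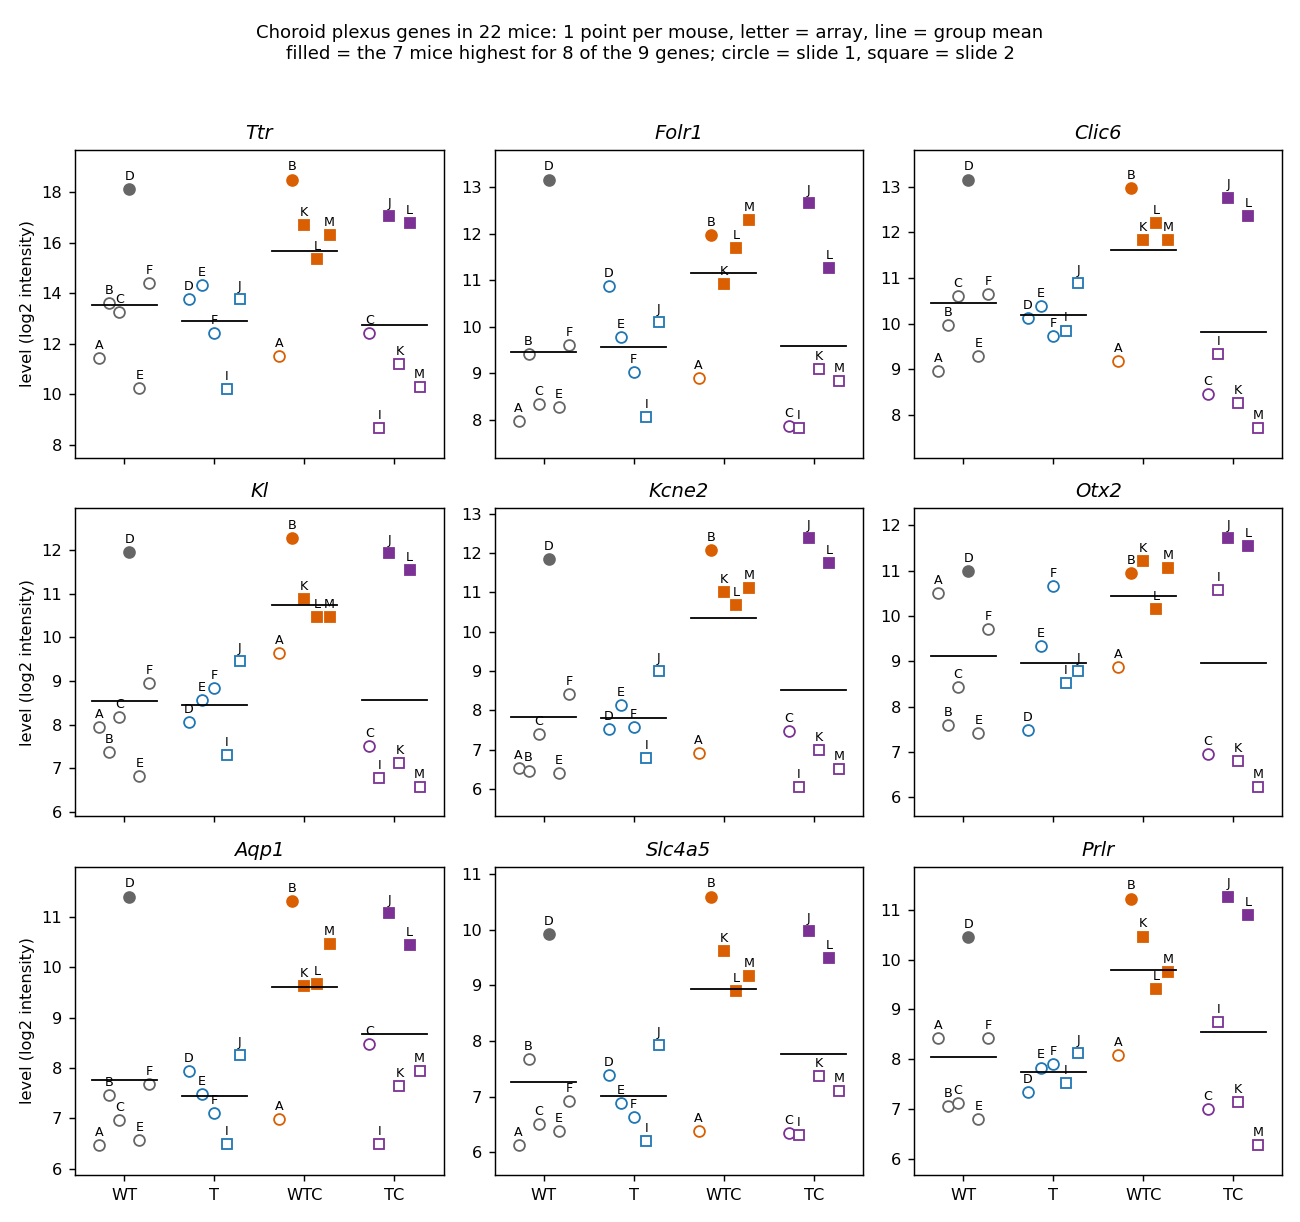
Level (log2 intensity, y axis) of the 9 choroid plexus genes in each of 22 mice by group (x axis), 1 panel per gene. Letters give the array, circles slide 1 and squares slide 2, lines the group mean, and filled points the mice WT D, WTC B, K, L and M, and TC J and L. The filled mice were picked by these genes' own levels. Their points lie above all open ones in every panel but that of Otx2, as for Kcne2 with 10.68 to 12.38 against 6.07 to 8.99.

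The same 7 animals held the 7 highest ranks for 8 of the 9 genes, Otx2 being the exception, and did so as well with the dye effect not removed. They were WT D, WTC B, WTC K, WTC L, WTC M, TC J and TC L. By group these are 1 of 6 WT, 0 of 5 T, 4 of 5 WTC and 2 of 6 TC mice, which is 6 of 11 lesioned and 1 of 11 intact animals. By slide they are 2 of 12 mice on slide 1 and 5 of 10 on slide 2, and 4 of the 7 were labelled with Cy5. On slide 2 they were 3 of 3 WTC, 2 of 5 TC and 0 of 2 T mice, and on slide 1 they were 1 of 6 WT, 1 of 2 WTC, 0 of 3 T and 0 of 1 TC mice. The 7 were picked out by their levels, so no test is given between them and the others.

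Folr1, the folate receptor that brings folate across this epithelium, lay between 10.92 and 13.16 in these 7 mice and between 7.83 and 10.88 in the other 15, the edges of both ranges nearly touching. The highest was WT D, and T D, at 10.88, came just below WTC K. Clic6, of the chloride intracellular channel family, lay between 11.84 and 13.16 against 7.72 to 10.89. Kl, the membrane protein Klotho that serves as a co-receptor for a hormone of the fibroblast growth factor family, lay between 10.46 and 12.28 against 6.58 to 9.63, where WTC A was the highest of the 15.

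For Aqp1, Slc4a5 and Prlr the same mice stood out. Aqp1, the water channel of the apical membrane, lay between 9.63 and 11.40 against 6.47 to 8.48. Slc4a5, a sodium bicarbonate cotransporter, lay between 8.90 and 10.60 against 6.13 to 7.93. Prlr, the prolactin receptor, lay between 9.41 and 11.26 against 6.28 to 8.75. In all 3 the 2 ranges did not meet.

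Otx2, a homeodomain transcription factor needed for the choroid plexus to form, departed from this order. Its level in the 7 mice was between 10.16 and 11.72, but WT A at 10.51, T F at 10.66 and TC I at 10.57 were above WTC L at 10.16, although all 3 were outside the 7 for the other 8 genes. TC I had the highest Prlr level outside the 7, at 8.75. Among the TC mice, Otx2 was 6.95 in C, 6.80 in K and 6.23 in M. Otx2 is also made outside the choroid plexus, in thalamus and midbrain for instance, and the mean level of the 12 genes of the thalamus list, relative to its mean over all mice, was 2.18 in WT A, 0.13 in T F and 0.48 in TC I. Its part in the Otx2 levels was not tested.

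OTX-type homeodomains bind TAATCC, read as GGATTA on the other strand. RefSeq promoter windows (build GRCm38.p6) were at hand for 6 of the 9 genes, with 12 start sites in all. Searching the 250 bases before each start on both strands found the motif at 1 of the 12 starts, and at 6.25% of 32851 start sites of all genes. That match was at 1 of the 4 starts of Otx2 itself, on the minus strand at chr14:48665303-48665332. The stretch is shown because it is the only match among the genes' windows, with the motif in capitals, 211 to 206 bases before the start.
Otx2: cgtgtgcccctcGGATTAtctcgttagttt
The windows of Kl, Aqp1, Slc4a5, Prlr and Kcne2 held no such letters, which says nothing about binding elsewhere.

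The spread within groups was among the widest on the arrays. Pooled over the 4 groups, the within-group SD of Ttr was 2.75 log2 units, the second widest of 26082 features (rank 2), and that of Kcne2 was 2.10 (rank 10). The SD was 1.73 for Otx2 (rank 31), 1.73 for Kl (rank 32), 1.66 for Folr1 (rank 40), 1.58 for Aqp1 (rank 49) and 1.57 for Clic6 (rank 51). Prlr had 1.45 (rank 83) and Slc4a5 1.38 (rank 100). All 9 were thus among the 100 features of widest spread, beside a median SD of 0.21 and a 99th percentile of 1.05 over all features. The spread was not equal across groups: the SD of Kcne2 was 2.11 in WT, 0.81 in T, 2.0 in WTC and 2.78 in TC, and that of Prlr was 1.38, 0.31, 1.18 and 2.12. The T mice had the narrowest spread for 8 of the genes and WTC for Otx2, at 0.97 against 1.17 in T.

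**Figure D2:**
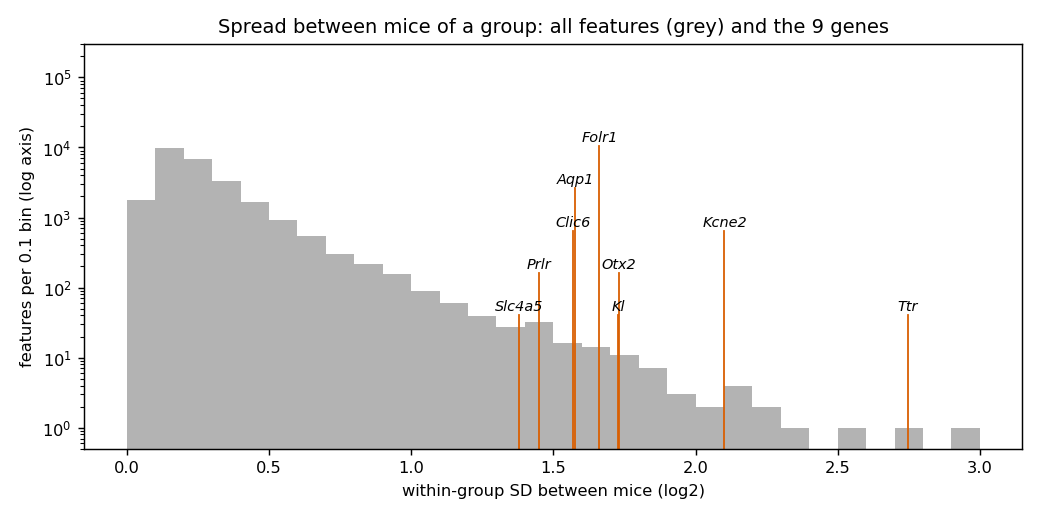
Pooled within-group SD between mice (log2, x axis) of 26082 features in bins of 0.1 (grey bars, number of features on a log axis), with the 9 choroid plexus genes as vertical lines whose height has no meaning. The genes lie between 1.38 and 2.75, above the 99th percentile of all features at 1.05.

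Wild-type lesioned against intact mice (WTC minus WT) asks whether the injury alone altered these genes. All 9 had a higher fitted level in WTC than in WT, but with errors so large that none passed the test. In the fit of array log2 ratios with limma, 0 of 9 genes passed an adjusted p of 0.05 in either direction, where 0.023% of all features did. An unadjusted p under 0.05 was reached by 3 of 9 genes and by 19.6% of all features. The median log2 ratio was 2.12, beside 0.00 over all features, and single genes ran from 1.49 for Slc4a5 to 2.86 for Kcne2. The Kcne2 ratio had an SE of 1.44 and a 95% interval of -0.37 to 6.09 (adjusted p = 0.308), and that of Ttr was 2.71 ± 1.82 (SE), with an interval of -1.38 to 6.80. A fit to separate channels, which uses differences between arrays too, called 14.2% of features as raised and 0 of the 9 genes. There 5 of 9 genes were higher with an unadjusted p under 0.05, as were 20.4% of all features. There Kl came nearest, at 2.35 ± 0.96 (SE; adjusted p = 0.0737).

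The 2 arrays that paired WTC with WT mice differed in size and, for some genes, in sign. Ratios given here and below for single arrays are normalised values with the dye effect not removed. On array B the log2 ratio WTC over WT was 4.40 for Ttr, 5.86 for Kcne2, 5.10 for Kl and 4.58 for Prlr. On array A it was 0.56 for Ttr, 0.12 for Kcne2, 1.5 for Kl and -0.76 for Prlr, while Otx2 was -2.50 on A and 4.21 on B. Without array B the median ratio of the 9 genes fell to 0.94, and without array A it was 3.17. In a fit of channel levels that treats the array as a random effect, chosen after the data were seen, 0 of 9 genes were called with all mice, beside 26.5% of all features. The count was 5 without WT D (22.8% of all features), 4 without WTC A (34.3%) and 1 without TC L (24.3%).

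**Figure D3:**
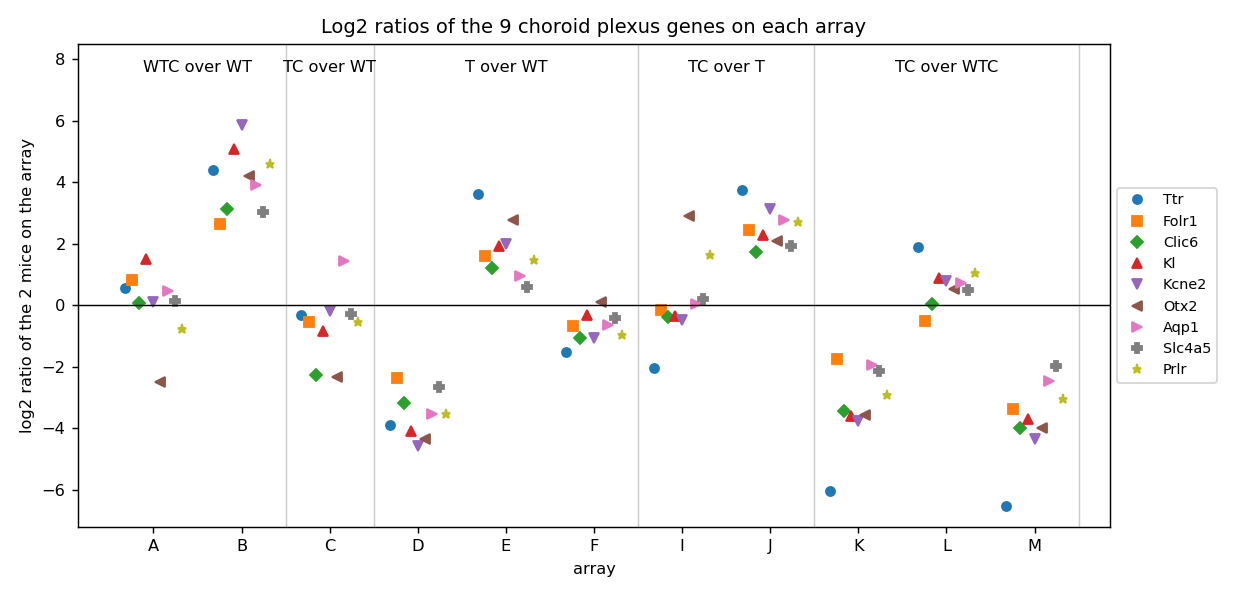
Log2 ratio (y axis) between both mice of each array (x axis, grouped by the pair of groups it holds) for the 9 choroid plexus genes, 1 marker per gene, with the dye effect not removed. The genes move together on most arrays, and arrays of 1 pairing can go opposite ways, as for Ttr with -6.02 on K, 1.89 on L and -6.51 on M.

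Lesioned transgenic against lesioned wild-type mice (TC minus WTC) asks whether VP16-CREB in astrocytes altered the injured cortex. All 9 genes had a lower fitted level in TC, with a median log2 ratio of -2.01 beside -0.02 over all features. None passed: 0 of 9 in the ratio fit, where 0% of all features did, and 0 of 9 in the separate-channel fit, which called 0.0231% of features as lowered. An unadjusted p under 0.05 was reached in the ratio fit by 3 of 9 genes and 14.8% of all features, and on the lower side in the separate-channel fit by 3 of 9 genes and 9.11% of all features. Clic6 had the smallest adjusted p, with a log2 ratio of -2.57 ± 0.87 (SE; adjusted p = 0.241), followed by Folr1 at -1.82 ± 0.69 (SE; adjusted p = 0.288). Ttr had the largest ratio, -3.23 ± 1.60 (SE), with an interval of -6.84 to 0.37.

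Here too single arrays went opposite ways, except for Folr1, at -1.735 on array K, -0.52 on L and -3.37 on M. TC over WTC was -3.76 on array K, 0.80 on L and -4.33 on M for Kcne2, and -3.45, 0.03 and -3.99 for Clic6. On array L both mice were among the 7, and on K and M the WTC mouse alone was. Without array L the median of the 9 genes was -3.37, without array M it was -1.23, and from slide 1 alone, where TC and WTC were never on the same array, it was -0.56. In that fit Aqp1 had the opposite sign, at 0.87. With slide as a block the median was -1.31 and the ratio of Ttr -1.98.

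Lesioned against intact transgenic mice (TC minus T) had a smaller median ratio than WTC minus WT. The difference of both lesion effects, given below, passed for no gene. In TC minus T the median log2 ratio was 1.005, beside 0.01 over all features, from 0.22 for Clic6 to 1.73 for Aqp1. Of the 9 genes 0 passed in either fit. Of all features 0% did in the ratio fit, and 4.71% were called as raised in the separate-channel fit. In the separate-channel fit the median was 0.41, the ratio of Ttr was 0.03, where the ratio fit gave 0.48, and that of Clic6 turned to -0.20. No gene had an unadjusted p under 0.05 in either fit (0 of 9 in both). Of all features 11.9% did in the ratio fit, and 11.6% on the higher and 13.3% on the lower side in the separate-channel fit. The 2 arrays of this pairing disagreed in sign for some genes: Ttr was -2.03 on array I and 3.74 on J, and Kcne2 was -0.48 and 3.14. Otx2 was positive on both, at 2.90 on I and 2.095 on J. The fit draws on the other arrays as well, and its sign is not that of the plain group means for Ttr, whose mean level was 12.74 in TC and 12.91 in T, nor for Clic6, at 9.82 and 10.20. Without array J the median was 0.24, and in the fit of channel levels with a random array effect it turned to -0.44 without TC J.

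Intact transgenic against intact wild-type mice (T minus WT) gave negative ratios for all 9 genes, with a median of -1.01 beside 0.00 over all features. The range was -1.26 for Clic6 to -0.71 for Folr1, and 0 of 9 passed, as did 0% of all features. An unadjusted p under 0.05 was reached by 0 of 9 in either fit. Of all features 2.92% reached it in the ratio fit, and 1.02% on the higher and 1.17% on the lower side in the separate-channel fit. The size of the median ratio depended on the model and on single arrays: it was -0.26 with slide as a block and -0.50 in the separate-channel fit. On array D, which holds WT D, T over WT was -3.87 for Ttr and -4.57 for Kcne2, while array E gave 3.61 and 1.99 and array F -1.53 and -1.07. Without array D the median was -0.21 and without array E it was -2.30, and in that fit of channel levels it turned to 0.21 without WT D. The mean level of Folr1 was 9.57 in T and 9.46 in WT, the reverse of its fitted sign.

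The difference of both lesion effects, (TC minus T) minus (WTC minus WT), was negative for all 9 genes with a median of -1.10, from -2.23 for Ttr to -0.43 for Aqp1. No gene passed, as no feature did (0%). An unadjusted p under 0.05 was reached in the ratio fit by 0 of 9 genes and by 5.38% of all features. The interval for Ttr was -6.89 to 2.44. Without array E the median was -0.03, and Aqp1 had the opposite sign in 8 of 49 alternatives. The 5 comparisons share mice, so their signs do not count as separate results.

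**Figure D4:**
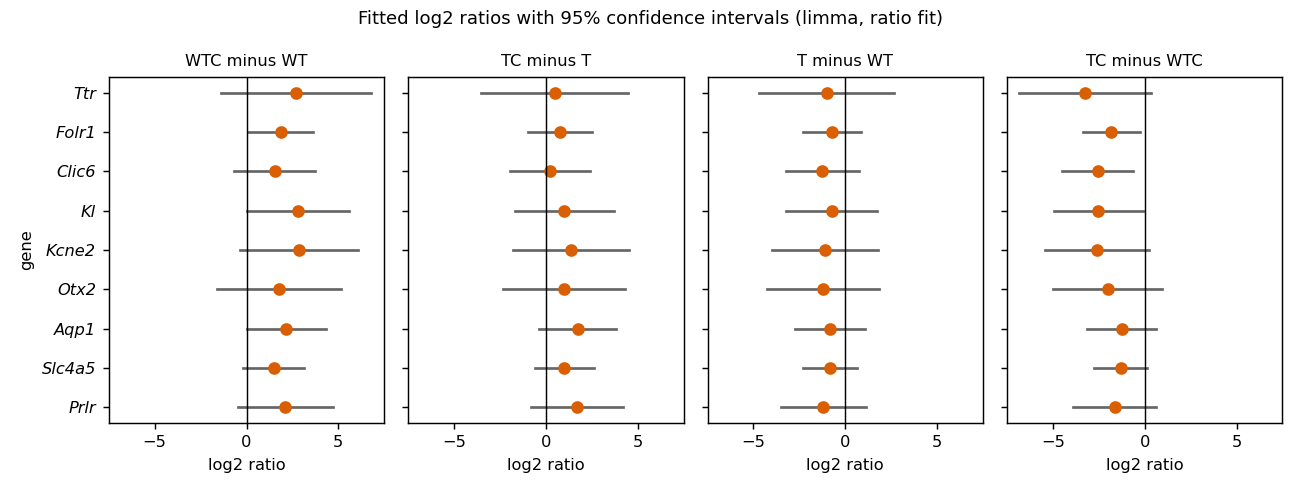
Fitted log2 ratio (x axis, points) with its 95% confidence interval (lines) for the 9 choroid plexus genes (y axis) in 4 comparisons, from the limma fit of array ratios. For Ttr the interval is -1.38 to 6.80 in WTC minus WT and -6.84 to 0.37 in TC minus WTC.

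The authors' deposited table holds the same probes. In it the log fold change of Kcne2 was 3.93 for WTC against WT, 0.90 for TC against T and -3.15 for TC against WTC. For Ttr the authors' deposited table gives 2.92, 0.30 and -3.10. Its smallest adjusted p-value among the 9 genes' brightest probes was 0.0927, for Clic6 in TC against WTC, in the 2 comparisons whose adjusted p-values were read. The base of the logarithm is not stated in that authors' deposited table.

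The 9 genes varied together between mice. The ratios of 11 arrays, each between 2 mice that appear nowhere else, were used here with the dye effect removed. They gave a Pearson r of Kcne2 with Ttr of 0.964 and a Spearman rho of 0.982 (two-sided permutation test with 100000 resamples, p = 1.0e-05 for both, the smallest it can give, adjusted p = 5.7e-05 for r over 40 relations). For the other 7 genes r with Ttr lay between 0.874 for Otx2 (permutation p = 6.6e-04, adjusted p = 0.00165, rho = 0.836) and 0.958 for Clic6. Without the 2 arrays farthest from the median of Ttr, r was between 0.796 and 0.950. On the 6 arrays of slide 1 alone r was between 0.847 and 0.962 (exact permutation test, adjusted p from 0.00292 to 0.0486). By rho, 6 of 8 genes had an adjusted p under 0.05 there in the same test. The exceptions were Otx2 (rho = 0.771, adjusted p = 0.114) and Aqp1 (rho = 0.829, adjusted p = 0.0686). Without the 2 arrays of slide 1 farthest from the median of Ttr, r was between 0.412 for Otx2 and 0.973 for Kcne2. The genes were picked as markers of 1 tissue with earlier results known, so these values describe them and are no independent evidence that they belong together.

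A set of 7 mice lay above the other 15 for 8 of the 9 genes, so no r with Ttr over all mice is given. The break was not clear in every gene: the edges nearly touched for Folr1 and overlapped for Otx2. For Ttr the widest gap lay elsewhere, between 8.66 and 10.21. The sets of 7 and of 15 were picked by these genes' own levels, so r within them is a description with no test. Within the 15 lower mice, r with Ttr was 0.783 for Kcne2 and 0.707 for Folr1, against 0.031 for Otx2 and 0.063 for Prlr. Within the 7 highest mice r ran from 0.348 for Otx2 to 0.933 for Slc4a5. Otx2 had the lowest r with Ttr in each of these sets of mice and arrays.

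Which other genes followed the 9 was asked of all 25956 remaining features, by the correlation of each with the mean of the 9 genes over 22 mice after removing group means, as a description with no test. The points share arrays and normalisation, and r includes the split of the mice into the 7 and the 15. The 10 highest with a symbol were Kcnj13 (r = 0.986), Trpm3 (0.978), F5 (0.978), Wdr86 (0.976), Steap1 (0.974), Ecrg4 (0.968), Krt18 (0.962), Tmem184a (0.960), Enpp2 (0.956) and Cldn2 (0.951). Kcnj13 is an inward-rectifier potassium channel, Enpp2 the secreted enzyme autotaxin, Cldn2 a claudin of leaky tight junctions and F5 coagulation factor V. All but Tmem184a stood in a list of 36 other choroid plexus genes, written for this work with earlier results of these data known.

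Of these 36 genes, 26 were among the 100 features of highest correlation, and 23 were when the 11 array ratios were used instead. Over the array ratios Slc5a5 had an r of -0.12. After removing group means, the median r of the 36 was 0.904, beside 0.013 over all features, and 0 of 36 had an r below 0. By contrast, 1 of 22 genes of the ependyma list, the ciliated cells that line the ventricles, was among the 100. Kcnj13 held its 7 highest levels in the same 7 mice, at 12.32 in WT D, 12.89, 11.84, 11.02 and 11.24 in WTC B, K, L and M, and 12.60 and 12.34 in TC J and L, with 9.60 in T J as the next. Enpp2 did so too, at 17.46 in WTC B and 17.05 in WT D. Sostdc1, a secreted antagonist of bone morphogenetic protein signals, put WTC A (9.29) above WTC L (9.16).

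Least like the 9 genes in that list were Spint2 (r = 0.176), Bmp7 (0.313) and Slc5a5 (0.379), singled out after their values were seen, and Bmp7 and Spint2 are also made by other cells of the brain. In the ratio fit 0 of the 36 were called in any of the 4 pairwise comparisons. Of all features 0.023% were called in WTC minus WT, and 0% in TC minus T, T minus WT and TC minus WTC. The median log2 ratio of the 36 was 1.01 in WTC minus WT, 0.68 in TC minus T, -0.55 in T minus WT and -0.69 in TC minus WTC. The separate-channel fit called 4 of 36 as raised and 1 as lowered in WTC minus WT, where 14.2% of all features were called as raised and 12.2% as lowered. In TC minus T it called 3 of 36 as raised, where 4.71% of all features were. Among those named, Tmem72 had 0.86 ± 0.55 (SE; adjusted p = 0.426) and Sostdc1 2.70 ± 1.18 (SE; adjusted p = 0.251) in WTC minus WT in the ratio fit.

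Levels of marker lists of neighbouring tissue in the same mice are given beside these results, each as the list's mean relative to all mice. The ependyma list lay between -0.85 and 0.45 in WT, -0.25 and 0.35 in T, 0.24 and 1.05 in WTC, and -1.10 and 0.68 in TC. Of the 7 mice highest for the choroid plexus genes, WT D was at 0.45, WTC B, K, L and M at 0.95, 1.05, 0.33 and 0.24, and TC J and L at 0.68 and 0.26, all above 0, as were 5 of the other 15. WTC A, one of those 5, stood at 0.80 for ependyma and at -1.02 for the 9 choroid plexus genes. All 22 measured ependyma genes had a positive ratio in WTC minus WT, with a median of 1.26. Of these 0 were called in the ratio fit, where 0.023% of all features were, and 15 as raised in the separate-channel fit, where 14.2% were. Foxj1, the regulator of motile cilia, was 10.49 to 11.12 in the WTC mice and 8.95 to 10.21 in the WT mice.

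The hippocampus list was highest in WTC A (2.15) and TC L (1.53), and the thalamus list in WT A (2.18), WT F (1.76) and TC L (1.5). The striatum list, headed by genes such as the dopamine receptor Drd1, lay between -1.84 in WTC A and 1.55 in WT C, and Drd1 itself between 6.73 in TC L and 11.27 in WT C. The mice thus differed in marker lists of several brain regions. Values of the hippocampus and then the thalamus list follow for the 7 mice highest for choroid plexus genes. WT D was at 0.53 and 0.67, WTC B at 0.06 and -0.99, and WTC K at -0.44 and 0.025. WTC L was at -0.42 and -0.35, WTC M at -0.72 and -0.12, TC J at -0.435 and 0.88, and TC L at 1.53 and 1.5. The meninges list lay between -0.42 and 0.54 over all mice. The part of these tissues in the choroid plexus values was not tested.

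**Figure D5:**
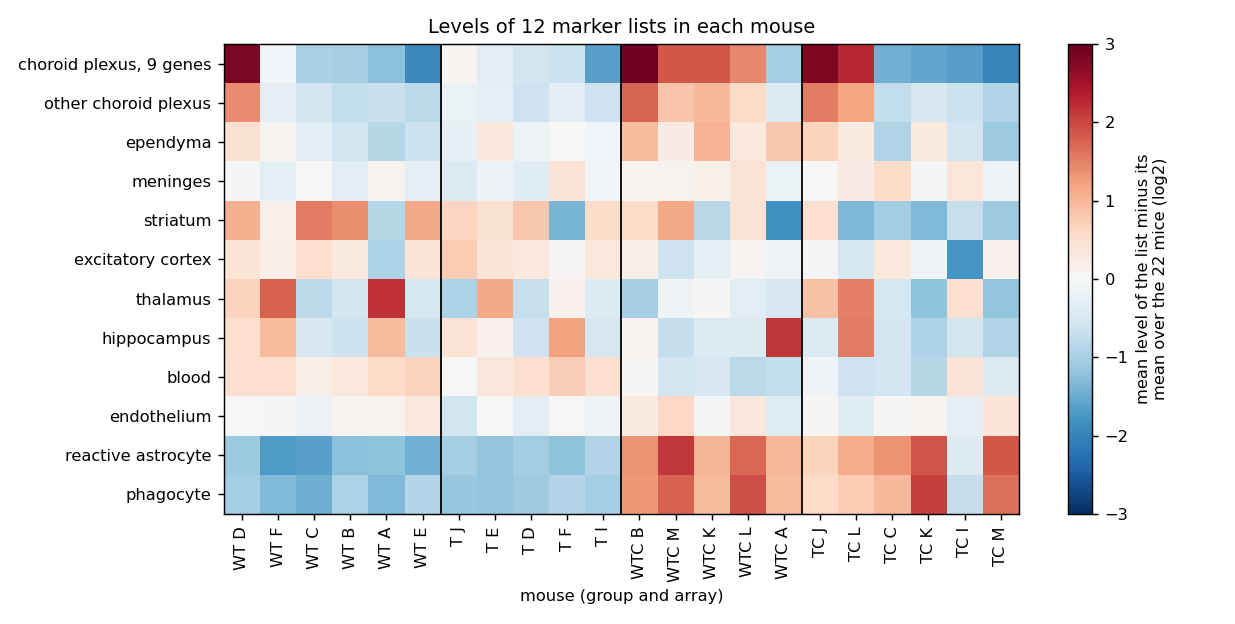
Mean level of 12 marker lists (rows) in each of 22 mice (columns, by group and in order of the 9 choroid plexus genes), relative to the list's mean over all mice (log2, colour). The upper 2 rows share their high mice, from 2.93 in WTC B to -2.01 in TC M for the 9 genes, while the lower 2 rows are higher in lesioned than in intact mice, with TC I nearest to the intact ones, at -0.41 for the reactive astrocyte list.

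A second probe was present for Folr1, Slc4a5 and Prlr. Each second probe had the sign of the first in all 5 comparisons and a smaller ratio except for Folr1 in TC minus T (0.89 against 0.76), as for Folr1 in WTC minus WT with 0.96 against 1.87, and for Prlr with 0.77 against 2.12. The second probe of Folr1 was well above background in 15 of 22 channels, that of Slc4a5 in 13 and that of Prlr in all 22. The levels of the second Prlr probe ran from 6.55 to 8.53, against 6.28 to 11.26 for the first.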

How the data were processed

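Each array's file is output that the authors deposited from the scanner software, Agilent Feature Extraction 10.7.3.1. Its spot and background values are, per the file headers, linear median intensity, not normalised. A log10 ratio of red over green, which the scanner software computed per the file headers, served as an alternative. The authors also deposited a table with log fold changes (read as log2, base not stated) and adjusted p-value columns, made with limma per the submitters' processing notes. One p-value column holds numbers above 1 and was not read.

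With limma 3.58.1 in R 4.3.3, background was corrected by normexp (offset 50) and ratios by loess within arrays. Control and outlier spots had weight 0, and outliers were left out. Spots of a probe were averaged. Probes were kept where at least 5 of 22 channels were marked well above background (35552 of 55681), and the brightest per gene was used. Of the probes, 26762 matched 1 symbol through RefSeq. limma's lmFit and eBayes were applied to array ratios (two-sided; T, WTC and TC against WT, and dye; 7 residual degrees of freedom), with Benjamini-Hochberg adjustment over 26082 features. Levels per mouse are channel values after Aquantile normalisation. The separate-channel fit used an intraspot correlation of 0.322 over 25965 features.

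Every channel is another mouse per the labels, and p-values reflect variation among mice. The genes and lists, and the rule for named genes (all 9, 6 fixed other choroid plexus genes, the 10 of highest correlation and fixed markers of other tissues), were chosen with earlier results of these data known. Alternatives were other background corrections, normalisations, filters, probe rules, models, slides, label readings and leaving out arrays or mice. The fits were tested on simulated data with independent noise. Levels that fall apart in sets, as for Kcne2, were not simulated.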

Additional observations from a re-analysis of the deposited data

Results flagged for a closer look

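Within single groups, 4 values stood far from the rest of their group, in 36 groups of 5 or 6 mice (9 genes in 4 groups). For independent values from a normal distribution, chance would mark about 1 group in 20. That rate need not hold here, where the levels of genes such as Kcne2 fall apart in sets of mice. WT D was the highest WT mouse by a wide gap for Folr1 at 13.165, for Kcne2 at 11.851 and for Aqp1 at 11.40. The next WT mice were at 9.60 for Folr1, 8.4 for Kcne2 and 7.68 for Aqp1. WTC A was the lowest WTC mouse for Kcne2, at 6.907 against 10.68 in the next. The genes vary together, so these are not 4 separate events. No cause was tested.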

How the results depend on the processing

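In 4 of the 5 comparisons 0 of the 9 genes were called in every one of the 49 or 50 alternatives that could be fitted. In WTC minus WT the count ranged from 0 to 5 when arrays or mice were left out one at a time, and rose above 0 only in the fit of channel levels with a random array effect, without WT D (5), without WTC A (4) and without TC L (1). That fit and its 22 omissions were chosen after the data were seen. The median ratio kept its sign in 49 of 49 alternatives for WTC minus WT (0.94 to 3.17) and in 50 of 50 for TC minus WTC (-3.37 to -0.56), in 48 of 50 for TC minus T (-0.44 without TC J to 2.18 with array weights) and in 48 of 49 for T minus WT (-2.30 to 0.21). The difference of lesion effects ranged from -2.25 to -0.03 (49 of 49 with the same sign). Own ratios were rerun for all 9 genes in WTC minus WT and TC minus WTC and for the genes named with a value in the other 3 comparisons. From slide 1 alone, Aqp1 turned in TC minus WTC (0.87 for -1.26) and in the difference of lesion effects (1.40 for -0.43), and Clic6 in TC minus T (-0.20 for 0.22). Aqp1 also turned in that difference with array weights (0.31), with the channel 2 labels for arrays I, J and K (0.076) and without these arrays (0.18). Clic6 also turned in TC minus T in the separate-channel fit (-0.195), the random-array fit (-0.21) and without arrays I, J and K (-0.22). With arrays or mice left out one at a time, TC minus T ranged from -1.11 to 1.64 for Ttr and from -0.99 to 0.76 for Clic6, T minus WT from -1.81 to 0.51 for Folr1, and the difference from -1.21 to 0.41 for Aqp1. Clic6 in TC minus T kept its sign in 24 of 50 alternatives and Ttr in 35 of 50. The cause of these turns was not tested. Each array pairs mice of unlike groups, and the ratio fit compares within arrays. WT mice lie on slide 1 alone, so slide and group are separated only in part. Low levels near background are compressed, as for Kcne2 in 4 of 22 channels.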

Other observations

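Kcne2 and Clic6 lie on chromosome 16 with 5 protein-coding genes between them in RefSeq's order (Smim11, Fam243, Smim34, Kcne1 and Rcan1).

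For the other lists, in WTC minus WT the median log2 ratio was 2.28 for 13 reactive astrocyte genes and 1.68 for 13 phagocyte genes, with 1 and 0 called as raised in the ratio fit and 12 and 13 in the separate-channel fit. Over all features the ratio fit called 0.023% in either direction, and the separate-channel fit called 14.2% as raised and 12.2% as lowered. Blood genes had a median of -0.83 (8 measured, 6 called as lowered in the separate-channel fit), endothelial genes -0.03, meningeal genes 0.37, striatal genes -0.80, excitatory cortex genes -0.20, thalamic genes -0.74 and hippocampal genes 0.22. In WTC minus WT, Rarres2, a secreted protein of the ependyma list, had 1.66 ± 0.37 (SE; adjusted p = 0.0967), Tmem212 of the same list 1.86 ± 0.83 (SE; adjusted p = 0.258), Slc6a13 of the meninges list -0.22 ± 0.41 (SE), Dcn 0.48 ± 0.48 (SE) and Penk of the striatum list -0.18 ± 0.51 (SE).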
